A study of Mus musculus with 20 samples.

Results

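Titin is the giant protein that runs from the edge to the middle of the muscle sarcomere, and its gene in the mouse, Ttn, was counted in these heart libraries piece by piece along its exons. All 392 rows that carry the single Ensembl identifier of Ttn (ENSMUSG00000051747) were taken, out of 425461 exon pieces in all, and no joined identifier holds a Ttn piece. An exon piece is an exon, or a part of one where annotated transcripts begin or end an exon at different bases. The pieces were numbered 1 to 392 from the 5′ end of the messenger. They lie on the minus strand of chromosome 2, at chr2:76703980-76982547 in GRCm38, span 1 to 17106 bases with a median of 208, and sum to 116825 bases.

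The study sequenced polyA-selected RNA from hearts of wild-type C57BL/6 mice aged 12 weeks, of both sexes, on chow or in groups named PA, which were read as the high-fat diet because the series names chow and high-fat diet alone. All mice share the genotype, strain and age; the labels name no other agent. Used here were 5 chow females (Chow-F), 4 chow males (Chow-M), 5 PA females (PA-F) and 5 PA males (PA-M), since Chow-M replicate 4 was deposited as 1 count per gene. The labels do not say that the samples come from separate animals or how long the diet lasted, so the p-values reflect only how far these samples spread, which may be technical.

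Titin's N-terminal part is anchored in the Z-disc, its middle part forms an elastic spring in the I-band, and its C-terminal part binds thick filaments in the A-band and ends in the M-band. The spring is built from chains of immunoglobulin (Ig) domains, from the N2B and N2A elements and from the PEVK segment, named after its most frequent residues proline, glutamate, valine and lysine. Adult hearts splice the messenger into a short, stiff form, N2B, that skips most of the spring exons, and longer N2BA forms that keep a variable number of them; the RNA-binding protein RBM20 is a known repressor of these exons. A further short form, novex-3, ends inside the I-band.

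The annotated transcripts divide the 392 pieces into stretches. Of the 25 Ttn transcripts in the GENCODE vM21 annotation, Ttn-201 is of the N2B type, with 192 exons, Ttn-203 is the longest, with 347 exons, and Ttn-202 ends in the novex-3 exon. Pieces 1 to 56 form the 5′ part, piece 57 is the last exon of the novex-3 form, and piece 58 is the N2B exon. Pieces 60 to 235 are the block that the N2B-type transcript skips, pieces 236 to 348 the shared part that ends with the longest exon of the gene (17106 bases, A-band), pieces 349 to 379 the rest of the exons before the M-band, and pieces 380 to 392 the M-band exons with the 3′ UTR. The longest transcript holds 376 of all pieces.

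The sequences shown here are those on which the pattern inside the skipped block turns: a step between adjacent pieces of the same kind, a piece that stands above the next one, and a piece with an identical copy. They were read from the GRCm38 transcripts on the minus strand of chromosome 2, and capitals mark codons for proline, glutamate, valine or lysine that lie whole within the piece. Piece 102 (chr2:76883910-76884197) and piece 103 (chr2:76881558-76881839) are exons 86 and 87 of the longest transcript and have the usual size of an exon for 1 Ig domain.
piece 102: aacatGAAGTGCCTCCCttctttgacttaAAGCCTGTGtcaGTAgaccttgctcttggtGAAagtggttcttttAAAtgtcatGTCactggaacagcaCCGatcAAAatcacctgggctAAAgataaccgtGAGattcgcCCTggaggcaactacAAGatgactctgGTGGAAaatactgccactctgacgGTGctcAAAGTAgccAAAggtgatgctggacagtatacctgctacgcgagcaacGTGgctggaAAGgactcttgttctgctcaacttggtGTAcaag
piece 103: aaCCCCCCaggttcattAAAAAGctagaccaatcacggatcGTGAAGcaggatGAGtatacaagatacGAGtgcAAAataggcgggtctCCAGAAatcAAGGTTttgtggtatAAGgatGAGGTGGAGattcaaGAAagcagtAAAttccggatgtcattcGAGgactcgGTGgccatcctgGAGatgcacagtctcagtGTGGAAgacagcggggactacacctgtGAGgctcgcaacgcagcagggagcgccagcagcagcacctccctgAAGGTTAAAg
Pieces 138 and 139 are short PEVK-type exons (chr2:76857904-76857987 and chr2:76857610-76857690).
piece 138: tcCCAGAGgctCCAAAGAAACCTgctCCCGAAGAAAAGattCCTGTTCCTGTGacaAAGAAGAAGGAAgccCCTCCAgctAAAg
piece 139: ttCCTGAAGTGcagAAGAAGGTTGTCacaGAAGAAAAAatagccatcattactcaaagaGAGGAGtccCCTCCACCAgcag
Pieces 194 (chr2:76832850-76832933) and 215 (chr2:76829067-76829150) have the same 84 bases.
piece 194: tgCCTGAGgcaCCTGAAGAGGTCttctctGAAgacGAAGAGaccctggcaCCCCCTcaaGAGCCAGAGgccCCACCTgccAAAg
piece 215: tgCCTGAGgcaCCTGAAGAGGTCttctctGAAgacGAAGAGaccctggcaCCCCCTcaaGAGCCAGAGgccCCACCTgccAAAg
The marked codons make up 27.4% of the whole codons in piece 102 and 30.1% in piece 103, against 77.8% and 57.7% in pieces 138 and 139 and 63.0% in pieces 194 and 215.

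The 19 libraries held 57805110 to 85794067 counts each, of which Ttn took 45066 to 357972, or 0.0684% to 0.429%. Markers of cardiomyocytes were present in all libraries, with summed levels of the 8 listed genes of 83443 to 103090 CPM, the count of a gene scaled to the size of its library. The 9 listed skeletal muscle markers summed to 4.62 to 19.2 CPM, with Neb at 0.455 to 15.2 CPM. Myh4 was at 0 in all libraries of both chow groups and of the PA females. The 4 atrial markers summed to 40.6 to 154 CPM, most of it Nppa. Nppa stood at 91.4 to 151 CPM in chow females, 65.5 to 139 in chow males, 37.6 to 86.3 in PA females and 36.9 to 67.7 in PA males. The atrial myosin light chain Myl7 stood at 0.722 to 2.65 CPM and sarcolipin (Sln) at 0 to 0.0325 CPM. PA-F replicates 4 and 5 stand apart from the other 17 libraries in earlier results of these data, so the results that rest on them are given with and without them.

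The summed Ttn count was alike in 17 libraries and low in the 2 that stand apart. Library sizes are those after TMM normalization. In chow females Ttn stood at 3613, 3897, 3244, 3485 and 3194 CPM, and in the 4 chow males at 3812, 4118, 4288 and 4018 CPM. PA males lay at 4361, 3661, 4428, 4223 and 3994 CPM. PA females lay at 4198, 3717 and 3315 CPM in replicates 1 to 3, and at 1384 and 683 CPM in replicates 4 and 5. The low values are thus confined to those libraries of PA females, and the remaining libraries of the 4 groups overlap. In PA-F replicates 4 and 5, the cardiomyocyte markers Myh6, Actc1, Tnnt2, Tnni3, Myl2 and Myl3 lay within or above the range of the other libraries. Tnnt2, at 13372 and 12131 CPM, was below all chow libraries, as in the other PA females. Myh6 stood at 41028 and 44381 CPM there. Pln, at 1833 and 1236 CPM, and Ryr2, at 1654 and 1243 CPM, were below all others. In these bulk samples, fewer cells of a type and less RNA per cell cannot be told apart, and the part of either in the Ttn level was not tested.

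No comparison of the Ttn total passed the test. With p-values adjusted by Benjamini-Hochberg over 18051 genes in edgeR's quasi-likelihood test, PA females differed from chow females by a log2 fold change of -0.39 ± 0.31 (SE, adjusted p = 0.497), and PA males from chow males by 0.03 ± 0.33 (adjusted p = 0.999). The difference between these 2 diet effects was -0.42 ± 0.45 (adjusted p = 0.716). Chow females lay below chow males by -0.22 ± 0.33 (adjusted p = 0.851), and PA females below PA males by -0.64 ± 0.31 (adjusted p = 0.180). Without PA-F replicates 4 and 5 the diet difference in females was 0.10 (adjusted p = 0.496), and the difference between the sexes on chow, unchanged in size at -0.22, had an adjusted p of 0.0488, in a fit that called 10.4% of the genes in that comparison. Summed endothelial markers (4 genes) were 765 to 832 CPM in PA females and 626 to 731 CPM in chow females, and summed fibroblast markers (5 genes) 845 to 951 against 721 to 806 CPM. The markers did not move alike. Col1a1 (168 to 219 against 132 to 149 CPM) and Col1a2 (277 to 321 against 208 to 236 CPM) were higher in PA females without overlap, as was Pdgfra. Dcn (333 to 393 against 328 to 385 CPM), Tcf21 and the endothelial Kdr overlapped. The part of these cells in the Ttn level was not tested.

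**Figure D1:**
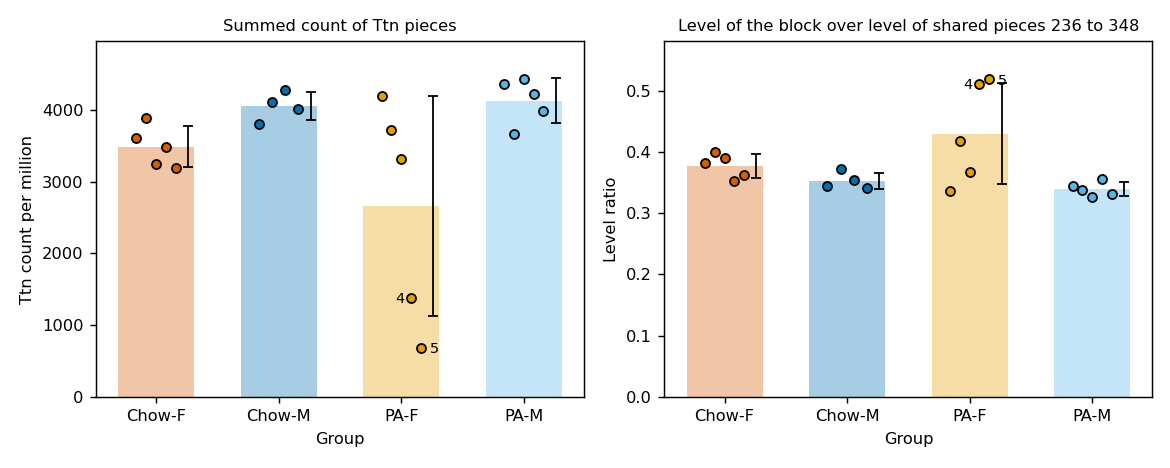
Left, Ttn level in CPM in each library; right, the level of the skipped block (pieces 60 to 235) divided by that of the shared pieces 236 to 348. Points are libraries, bars group means and error bars the SD (n = 5, 4, 5 and 5). PA-F replicates 4 and 5, marked by their number, lie lowest on the left, at 1384 and 683, and highest on the right, at 0.511 and 0.518.

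Counts rose steeply towards the 3′ end of the gene in every library. A level here is CPM per kb of piece. Reads that cross from one piece into the next add to the counts of both, so the level of a short piece is raised: an increase of about 175 bases in apparent length per piece was estimated from neighbouring pieces of unequal length. Piece 382, with 11 bases, thus has a level of 5940, while its mean count of 4555 is below the 6327 of the 150-base piece 385. The M-band pieces and 3′ UTR, 7.09% of the length, took 70.0% to 73.8% of Ttn counts in chow females, 66.1% to 70.4% in chow males, 65.4% to 77.5% in PA females and 64.4% to 69.6% in PA males.

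Whole pieces were put by their position into 10 parts of the summed length, of 6528 to 17106 bases each; the first has 11786 and the last 11560. The last part held 73.0% to 81.8% of the counts (median 77.0%) and the first 2.97% to 4.12%. Per length, the level of the last part was 18.1 to 22.8 times that of the first in 17 libraries, and 28.1 and 22.4 times in PA-F replicates 4 and 5. Of the other long genes, the calcium release channel Ryr2 had a fold of 1.3205 to 2.86 in those 17 libraries, against 51.4 to 131 in Dst and 63.1 to 165 in Macf1, both giant cytoskeletal linkers. Dystrophin (Dmd) had 3.40 to 6.57. In PA-F replicates 4 and 5 the fold was 170 and 148 in Dst and 217 and 213 in Macf1, above the other 17 libraries. Dmd, with 8.79 and 3.02, and Ryr2, with 2.08 and 1.22, were not above them in both replicates. Titin thus lay between these genes, all counted by the same rule over their own annotated pieces.

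**Figure D2:**
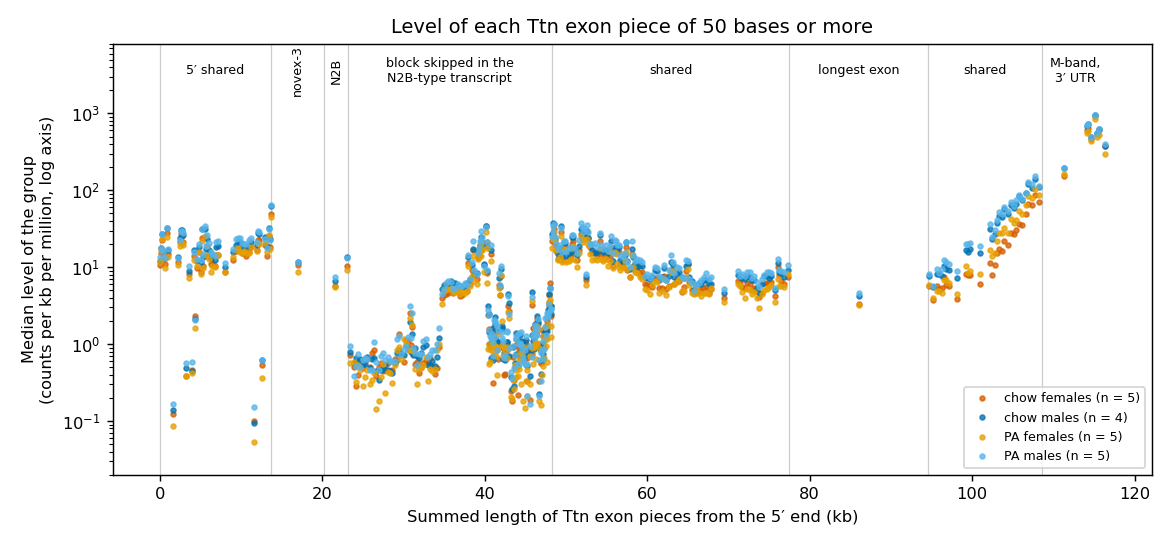
Median level in each group (CPM per kb, log axis) of every Ttn piece of 50 bases or more, by its position in the summed length of the pieces from the 5′ end. The 4 groups follow the same course: near 10 in the 5′ part, a drop and a plateau inside the skipped block, and a rise over the last pieces.

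The pieces of extreme level lie at opposite ends. Among pieces of 100 bases or more, the highest levels were those of piece 388 (871), piece 386 (640) and piece 385 (605), all M-band exons. The lowest were those of piece 46 (473 bases, 0.106), piece 9 (959 bases, 0.129) and piece 165 (291 bases, 0.286). Pieces 9 and 46 are among 9 pieces that none of the 5 longest transcripts contains. Those 9 had mean counts of 3.42 to 26.9 a library, and 7 of them are 135 to 959 bases long, such as piece 9, which had 2 to 17 counts beside 82 to 342 in the adjoining 242-base piece 8.

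The long exons can be compared per length with little effect of the read overhang. The novex-3 exon (piece 57, chr2:76913944-76920463, 6520 bases) had 1000 to 6435 counts a library. Its level was 11.1 ± 0.762 in chow females, 11.6 ± 0.657 in chow males, 7.20 ± 3.99 in PA females and 11.4 ± 0.599 in PA males (mean ± SD, n = 5, 4, 5 and 5). The N2B exon (piece 58, chr2:76907308-76909953, 2646 bases), which the full-length forms contain and novex-3 does not, had levels of 5.61 ± 0.187, 6.75 ± 0.221, 4.39 ± 2.58 and 7.14 ± 0.794 in the same order. Replicates 1 to 3 of the PA females had 11.0, 10.4 and 8.70 for the novex-3 exon and 7.49, 5.48 and 5.50 for the N2B exon, and replicates 4 and 5 had 3.61 and 2.33, and 2.24 and 1.23, so the low means of that group come from those libraries. The novex-3 exon was counted at 1.44 to 2.11 times the level of the N2B exon (median 1.80), and above it in 19 of 19 libraries. It is the last exon of its form, while the N2B exon lies far from the 3′ end of the full-length forms. Because counts rose towards the 3′ end of the gene, this ratio does not give the relative amounts of the forms. The part of position in it was not tested.

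Downstream the level of long exons first fell and then rose. Piece 326 (chr2:76765718-76768684, 2967 bases) averaged 4.16 and the 17106-base A-band exon (piece 348, chr2:76736064-76753169) 3.69 over the groups. Piece 361 (chr2:76724778-76726844, 2067 bases) averaged 12.3, and piece 380 (chr2:76708776-76714212, 5437 bases), the first M-band exon, which codes for the titin kinase domain, 165. That exon alone took 19.6% to 27.4% of all Ttn counts. The first piece (92 bases, chr2:76982456-76982547, 5′ UTR) had 29 to 119 counts, and the last (4 bases, chr2:76703980-76703983) 5 to 200, with the 200 in 1 chow female and at most 47 in any other group.

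Inside the skipped block the pieces fell into 3 stretches. They were delimited after their values were seen, the second as the first run of pieces with a mean count of at least 50, so they are a description. Pieces 60 to 102 (43 pieces, median length 279 bases, Ig-type) had mean counts of 3 to 30.1 with a median of 11.0. Pieces 103 to 132 (30 pieces) had 77.7 to 271 with a median of 102. Pieces 133 to 235 (103 pieces, median length 81 bases) had 0.105 to 88.2 with a median of 5.42, and 5 of them reached 30. Marked PEVK codons made up a median of 29.0% of codons in the first stretch, 31.3% in the second and 74.5% in the third.

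The step at piece 103 was present in all libraries. Summed over each stretch, the level of pieces 103 to 132 was 9.47 to 14.5 times that of pieces 60 to 102 in the 19 libraries (median 12.3). The stretches were set from the mean counts of these same libraries, so this fold describes the step and does not test it. Among pieces of 260 to 290 bases the overhang is alike. There, 35 pieces up to 102 had a median level of 0.565 (range 0.409 to 1.17), and 14 pieces from 103 to 132 a median of 5.12 (4.32 to 7.46). Outside the block, 10 such pieces among 36 to 52 had a median of 16.8 and 25 after the block 11.3. Pieces of this size before the step lay below all those from 103 to 132. The limit of 50 counts that set the stretches largely fixes this order. Those from 103 to 132 lay below all those of the 5′ part. The pieces after the block, from 5.18 to 17.9, overlapped both. At the step itself, piece 102, whose sequence is given above, had 2 to 36 counts and piece 103 20 to 142.

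**Figure D3:**
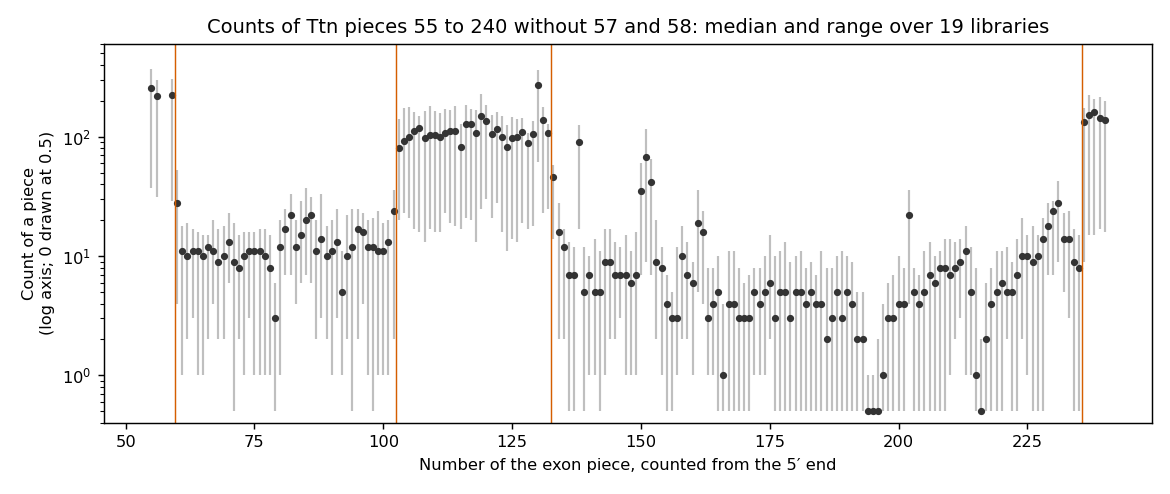
Count of each piece from 55 to 240 (log axis; zeros drawn at 0.5), without the long pieces 57 and 58, as the median (point) and range (line) over 19 libraries. Vertical lines mark pieces 60, 103, 133 and 236, where the block begins, steps up, steps down and ends.

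A few PEVK-type pieces rose out of the third stretch. Piece 138 (84 bases) had 90, 100, 88, 79 and 104 counts in chow females, 96, 109, 120 and 104 in chow males, 75, 78, 87, 41 and 17 in PA females and 125, 90, 79, 90 and 104 in PA males. The next piece of near equal length, piece 139 (81 bases), had 0 to 12 counts in all libraries. Piece 138 was therefore higher than piece 139 in 19 of 19 libraries, with a median ratio of 18. Pieces 150 to 152 also stood out, with mean counts of 35.9, 67.7 and 42.4.

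Some pieces of the block share sequence with others, which bears on how their reads could be placed. Of the 392 pieces, 12 contain a 50-base window that occurs more than once in the longest transcript, and in 8 all windows do. Those 8 had mean counts of 0.105 to 3.53 (median 1.68), against 1.47 to 88.2 (median 6.68) for 75 pieces of at least 50 bases in the third stretch with no such window, so the ranges overlap. Pieces 194 and 215 are identical over 84 bases and had 0 to 1 and 0 to 8 counts. How reads with several matches were treated is not given in the sources used here, so the low counts of these pieces and a low use of the exons cannot be told apart.

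2 other pieces outside the block were compared with their neighbours. Piece 14 (138 bases), a Z-disc exon that the longest transcript contains and the N2B-type transcript lacks, was counted at 0.825 to 1.01 of the adjoining piece 13 of 132 bases, with a median of 0.895. Piece 264 (267 bases, chr2:76802231-76802497), which both transcripts contain, had 13 to 169 counts and stood at 0.504 to 0.739 of the mean count of pieces 263 and 265. It was picked as the lowest against its neighbours among the longer pieces of 236 to 348 whose neighbours are both shorter. Its low ratio thus follows from that choice, and what lowers its count was not tested.

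The share of Ttn counts from the skipped block overlapped between the groups. The block, 21.5% of the length, took 1.63% to 2.07% of Ttn counts in chow females, 1.70% to 2.07% in chow males, 1.83% to 2.01% in PA females and 1.84% to 2.06% in PA males. As a ratio to the level of the shared pieces 236 to 348, it stood at 0.381, 0.399, 0.389, 0.352 and 0.362 in chow females and at 0.344, 0.371, 0.353 and 0.341 in chow males. PA males had 0.345, 0.338, 0.326, 0.355 and 0.331. PA females had 0.336, 0.418 and 0.367 in replicates 1 to 3 and 0.511 and 0.518 in replicates 4 and 5, the highest of all. If each piece is given 175 further bases for the read overhang, the ratio falls to 0.209 to 0.268 in 17 libraries and to 0.327 and 0.332 in those replicates, in the same order. The block's share in PA-F replicates 4 and 5, 2.01% and 1.99%, lay within the range of the other libraries. Pieces 236 to 348 took their lowest shares there, 7.27% and 7.08%. Against the 5′ exons that the N2B-type transcript contains, the block ratio was 0.239 and 0.197 in those replicates and 0.151 to 0.189 in the other 17.

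Of 8 exact permutation tests over libraries on log2 ratios (two-sided, adjusted together by Benjamini-Hochberg), none passed. The block ratio was higher in PA females than in PA males by 0.32 (exact p = 0.0317, adjusted p = 0.0847), and by 0.13 without PA-F replicates 4 and 5 (exact p = 0.143). Between the diets it differed by 0.17 in females (exact p = 0.262) and by -0.06 in males (exact p = 0.175), and between the sexes on chow by 0.10 (exact p = 0.0952). The ratio of the first to the last of the 10 parts differed between PA and chow males by 0.09 (exact p = 0.0317, adjusted p = 0.0847), between PA females and PA males by -0.24 (exact p = 0.0317, adjusted p = 0.0847), and by -0.05 and -0.09 in the comparisons of diet in females and sex on chow (exact p = 0.683 and 0.190). The smallest p that 5 against 5 libraries allow is 0.00794, and 5 against 4 allow 0.0159.

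No single Ttn piece passed the test of a changed share of its gene. Of the 392 pieces, 321 had enough counts to be tested, and 70 of the 71 that did not lie in the skipped block. By edgeR's test of each piece against its gene, 0 of 321 were called for diet in females, where 0.0187% of 203296 pieces of all genes were called, and 0 for diet in males, where the background was 0%. Likewise 0 were called for the difference between the diet effects, for sex on chow and for sex on PA, where 0.000984%, 0.0275% and 0.0212% of all pieces were called. At an unadjusted p under 0.05 there were 9, 0, 1, 15 and 0 Ttn pieces in that order, or 2.80%, 0%, 0.312%, 4.67% and 0% of those tested. Of all pieces tested, 1.22%, 0.667%, 1.04%, 1.13% and 1.44% had such a p in the same order. By limma's diffSplice, 0 Ttn pieces were called in each.

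Apart from the last piece, the Ttn pieces at an unadjusted p under 0.05 for diet in females and for sex on chow lay between pieces 361 and 374, upstream of the first M-band exon. The smallest p in both comparisons was that of piece 392, the last, of 4 bases: it was higher in chow females than in chow males by 0.92 on the log2 scale (unadjusted p = 0.00832) and lower on PA than on chow in females by -0.77 (unadjusted p = 0.0246). For sex on chow, the other 14 of the 15 pieces were lower in females, and for diet in females the other 8 of 9 were higher on PA. Piece 361, the longest of the stretch, differed by -0.48 between the sexes on chow (unadjusted p = 0.0237) and by 0.44 between the diets in females (unadjusted p = 0.0299). All of these had an adjusted p of 1. These 2 comparisons share the chow females.

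Without PA-F replicates 4 and 5, the same test called pieces in this stretch. It then called 13 of 330 pieces for diet in females, all higher on PA and all between pieces 361 and 374, with log2 changes of 0.44 to 0.53 and adjusted p of 0.000434 to 0.0214; the background was 0.0194%. It called 19 for sex on chow, where the background was 0.0844%. Of these, 18 between pieces 357 and 375 were lower in females by -0.35 to -0.51, with adjusted p of 3.87e-05 to 0.0373. The 4-base piece 392, with its 200 counts in 1 chow female, was higher by 0.91. When only the 2 chow groups were fitted, 17 pieces were called for sex on chow, against 0.0745% of all pieces. Without the 2 libraries, all 13 pieces called for diet were among the 19 called for sex. Neighbouring pieces share reads, and the test takes the spread over the pieces of a gene together, so these calls are not independent of each other.

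Taken as 1 value per library, the stretch showed overlapping groups. Pieces 349 to 379 took 7.69%, 13.9%, 7.60%, 9.39% and 6.35% of Ttn counts in chow females and 9.19%, 12.8%, 16.2% and 14.3% in chow males. PA females had 15.4%, 13.5%, 11.0%, 7.31% and 8.01%, and PA males 14.9%, 12.8%, 15.8%, 14.2% and 9.61%. Chow female 2 thus lay among the high libraries, and chow male 1 and PA male 5 close to the chow females. By an exact permutation test over libraries, chosen after the data were seen, the log2 share was lower in chow females than in chow males by -0.57 (exact p = 0.0794, adjusted over 4 comparisons p = 0.317). The diet difference in females was 0.29 (exact p = 0.333), and 0.61 without PA-F replicates 4 and 5 (exact p = 0.107).

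**Figure D4:**
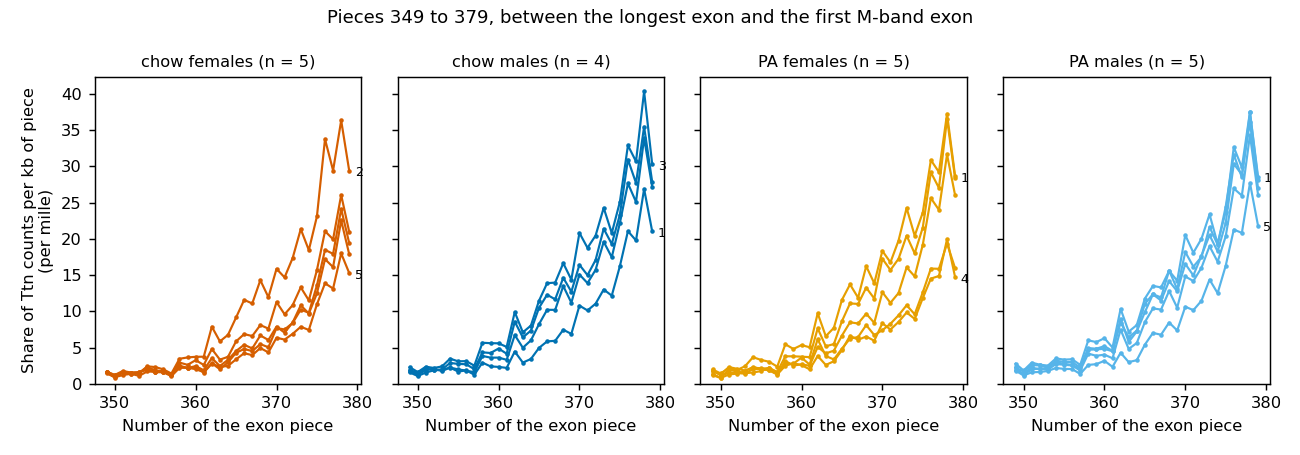
Share of all Ttn counts per kb of piece (per mille) for pieces 349 to 379, 1 line per library and 1 panel per group; the libraries highest and lowest at piece 379 carry their replicate number. In each group the libraries rise together towards piece 378 and differ in height, with chow female 2 far above the other chow females.

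A gene on the opposite strand crosses part of this stretch. Gm13938 (chr2:76722776-76786708) spans 73 Ttn pieces, 294 to 366, and shares exon bases with 5 of them, 1 of which lies among pieces 357 to 375. It had 103 to 1403 counts a library. Counting by strand is not given in the sources used here, so reads of the 2 genes over shared bases cannot be told apart.

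Some genes of titin's partners and of the splicing factors passed the test between the sexes or with diet in females. The list holds 39 genes, all tested: 10 splicing factors, 9 Z-disc genes, 7 that bind the I-band spring and 13 of the A-band and M-band. For sex on chow 1 gene was higher in females and 3 lower, where 1.73% and 1.49% of all genes tested were called; for sex on PA 3 were higher and 4 lower, where 6.4% and 3.94% were called. For diet in females 1 was higher and 1 lower (background 1.67% and 0.864%). For diet in males (background 0.765%) and for the difference between the diet effects (background 0%), edgeR called 0, DESeq2 also 0, and 5 and 3 genes had an unadjusted p under 0.05. DESeq2 called 5 for diet in females, 4 for sex on chow and 11 for sex on PA. The percentages above are edgeR's. The share of all genes called by DESeq2, or at an unadjusted p under 0.05, is not given here, so those counts have no background. The median log2 change of the list lay between -0.05 and 0.03 in all 5 comparisons, and that of all genes tested between -0.02 and 0.01.

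The splicing factors had a lower median than the whole list in the comparisons with PA females, at -0.25 for diet in females and -0.38 for sex on PA, and 5 of the 10 were low in PA-F replicates 4 and 5. Mbnl1, a muscleblind protein that regulates splicing in muscle, stood at 17.1 and 12.1 CPM in those libraries and at 116 to 150 CPM in the other 17. Mbnl2, its relative, stood at 15.9 and 9.41 CPM against 97.9 to 140 CPM, and Qk (quaking) at 68.9 and 40.1 CPM against 211 to 309 CPM. Rbfox1 and Srsf10 were likewise below the other libraries, at 11.9 and 5.87 CPM and at 24.7 and 13.0 CPM. Such low values were not confined to splicing factors. Nebl stood at 30.2 and 17.9 CPM there against 248 to 336 CPM, and Cmya5 at 259 and 148 CPM against 512 to 700 CPM. Actn2, at 2822 and 3053 CPM, was not low. The share of all genes that were low there is not given here, so the 5 of 10 have no background. These are the libraries with the lowest Ttn total and the highest block ratio. The part of the splicing factors in the Ttn values was not tested. No comparison of these 5 splicing factors passed edgeR's test.

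The Z-disc gene Tcap (telethonin), which joins the N-terminal ends of titin molecules, had the largest change of the list. It stood at 748 ± 45.7 CPM in chow females (716 to 824) and 281 ± 48.5 in chow males (209 to 315), and at 681 ± 159 in PA females (504 to 846) and 335 ± 56.4 in PA males (248 to 385). All females thus lay above all males. The log2 difference was 1.41 ± 0.16 on chow (edgeR, adjusted p = 6.1e-05) and 1.02 ± 0.15 on PA (adjusted p = 0.000473).

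Other partners were lower in females. The Z-disc gene Myot (myotilin) was lower by -0.64 ± 0.14 on chow and -0.87 ± 0.13 on PA. Capn3, a protease that binds the N2A region, was lower by -0.80 ± 0.10 and -0.69 ± 0.10, at only 2.62 to 7.07 CPM. Ankrd23, an ankyrin repeat protein that binds N2A, was lower by -0.64 ± 0.09 and -0.54 ± 0.08. On PA, Ankrd1 was also lower (-0.49 ± 0.14, adjusted p = 0.0349), and Synpo2l (0.31 ± 0.07) and the splicing repressor Ptbp1 (0.24 ± 0.06) were higher; adjusted p of Ankrd1 and Synpo2l were 0.0593 and 0.0538 without PA-F replicates 4 and 5.

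With diet in females, the actin cross-linker Flnc rose by 0.34 ± 0.07 (adjusted p = 0.0213) and Myot fell by 0.50 ± 0.13 on the log2 scale (adjusted p = 0.0468). Flnc stood at 356 to 449 CPM in chow females and 452 to 598 in PA females, with no overlap. The call for Myot had an adjusted p of 0.0662 without PA-F replicates 4 and 5. Rbm20, the regulator of titin splicing, stood at 170 to 211 CPM in all libraries and no comparison passed: the largest log2 difference was 0.09 ± 0.05, between PA females and PA males (adjusted p = 0.225).

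Among the 5 genes whose level followed that of Ttn most closely were 4932438A13Rik, Akap6, Pum2 and Spag9, with Pearson correlations of log2 CPM of 0.995 to 0.996 over 19 libraries among 13507 genes that averaged 1 CPM or more. These values are a description, and the 2 low libraries enter each of them; over the other 17 libraries the correlations of these 4 genes were 0.898 to 0.925.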

How the data were processed

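Per the labels' protocols, a NovaSeq sequenced polyA-selected RNA of 20 heart samples. GRCm39, DESeq2 1.32.0 and Salmon 1.5.1 are named in the submitters' processing notes. The deposited values are raw counts: 19 files give counts for 425461 exon pieces, and the file of Chow-M replicate 4, left out, 1 count per gene. The coordinates are those of GENCODE vM21 on GRCm38. The aligner, counter and strand setting behind the piece counts are not given in the sources used here.

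Gene counts were sums over pieces. Of 33309 pieces with joined identifiers, 27970 were given to 1 gene through the annotation and 5339 were not used (1.17% to 1.30% of counts). edgeR 4.0.16 (R 4.3.3) was fitted over the 4 groups with 15 residual degrees of freedom, after filterByExpr and TMM: diffSpliceDGE tested each of 203296 pieces against its gene, and the quasi-likelihood F-test 18051 genes, with Benjamini-Hochberg adjustment over all features and calls at an adjusted p under 0.05. Ratios had exact permutation tests over libraries. Alternatives were limma 3.58.1 (voom, diffSplice), DESeq2 1.42.0, its size factors, other filters, a replicate block, only the groups compared, and libraries left out; the ratio against the 5′ exons and the test of pieces 349 to 379 were added after the data were seen. Scripts were tested on simulated data.

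Pieces named are those of 2000 bases or more, the first and last, called pieces, and the 3 highest and 3 lowest levels among pieces of 100 bases or more; genes named are Ttn, the partner list, 5 long genes, markers and the 5 most correlated with Ttn, of which some are not reported here. Pieces 8, 13, 14, 102, 103, 138, 139, 150 to 152, 194, 215, 263 to 265 and 382 were singled out after their values were seen. The members and lists were chosen with earlier results of these data known. Because a read can count several times, counts overstate reads; the precision of each value is given by how libraries of a group vary.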

Additional observations from a re-analysis of the deposited data

Results flagged for a closer look

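The novex-3 exon (piece 57) took 2.219% of Ttn counts in PA-F replicate 5, against 1.70% to 1.82% in the other 4 PA females. The gap to the nearest library is 0.777 of the group's range, above Dixon's limit for 5 samples. The stretch and the piece are the same exon, so the 2 values flagged among 68 sets of libraries tested are 1 observation, and chance flags about 1 in 20 such sets. PA-F replicate 5 also has the lowest Ttn count of all libraries (45066), and the part of depth or RNA quality in its share was not tested.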

How the results depend on the processing

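Leaving out PA-F replicates 4 and 5 changed the most. The log2 difference of the Ttn total between the diets in females turned from -0.39 to 0.098 and the difference between the diet effects from -0.42 to 0.072. The sex difference on chow, -0.22 in both, came to an adjusted p of 0.0488, and to 0.0378 at -0.22 when only the compared groups were fitted. The called Ttn pieces went from 0 to 13 for diet in females and from 0 to 19 for sex on chow, and to 17 for sex on chow with only the compared groups, where 0.0745% of all pieces were called. For diet in females, the log2 ratio of block to shared pieces turned from 0.17 to -0.017, and that of the first to the last of the 10 parts from -0.05 to 0.064. The median over pieces of 50 bases or more turned the block ratio for diet in males from -0.06 to 0.0035. The cause of these changes was not tested.

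With each library left out in turn, 0 Ttn pieces were called in all 5 comparisons. The Ttn total then ranged from -0.0019 to 0.069 for diet in males, the lowest without Chow-M replicate 1, and the log2 ratio of the first to the last of the 10 parts for diet in females from -0.11 to 0.031, the highest without PA-F replicate 4. Giving each piece a fixed overhang scales all block ratios alike, so their differences stay as they were.

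Little sign of pairing by replicate number was seen: 1 of 27 same-numbered pairs of libraries had a correlation of deviations over 0.1 (range -0.06 to 0.14). Pairs with different numbers were not compared, so this check cannot exclude that same-numbered samples were handled together. With the replicate block, 0 Ttn pieces were called in all 5 comparisons, the Ttn total for diet in females was -0.51 (adjusted p = 0.357), and the block ratio for sex on PA 0.32 (exact p = 0.125). Of the called partner genes, Myot for diet in females lost its call in 8 of 10 fits with a library left out (adjusted p 0.0452 to 0.112), Ankrd1 for sex on PA in 4 of 10 (0.0187 to 0.0992), and Flnc, Ptbp1 and Myot for sex on chow in 1 each. Of the 39 partner and splicing genes, DESeq2 called 5 for diet in females against 2 by edgeR, and 11 against 7 for sex on PA. DESeq2's share over all genes is not given here, so a larger count need not mean more change in the list. Pieces with a few counts a library, as in most of the PEVK stretch, limit what could be seen there.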
